A study of Mus musculus with 230 samples.

Results

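The genes that encode receptors for GABA, glycine and glutamate were examined in mouse dorsal root ganglion (DRG) sensory neurons. Members were taken by gene name as subunits or receptors of the GABA-A, GABA-rho, GABA-B, glycine, AMPA, kainate, delta, NMDA and metabotropic glutamate classes, and names of opposite-strand transcripts (ending in os) were left out. This gave 53 members of 53278 gene features, of which 16 are GABA-A, 3 GABA-rho, 2 GABA-B, 5 glycine, 4 AMPA, 5 kainate, 2 delta, 7 NMDA and 8 metabotropic glutamate genes. The remaining member, Grid2ip, matches the name pattern but encodes no receptor.

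All mice were C57BL/6 X CAST/Ei crosses, and their sciatic nerve had been injured by surgery or was intact. Neurons were picked by hand from dissociated L4 and L5 ganglia, and RNA was measured by SMART-seq2. There were 18 low-input libraries, 3 injured and 3 intact at each of 1, 8 and 12 months (part of the labels of the oldest group give 1 year), and 69 single cells, injured and intact, at 1 month and 1 year. The labels name no animal, so p-values measure the spread between these libraries, which may be technical.

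GABA-A, GABA-rho and glycine receptors are chloride channels built of several subunits, and GABA-B receptors act through G proteins. AMPA, kainate and NMDA receptors are cation channels opened by glutamate, and the metabotropic receptors act through G proteins. Primary sensory neurons release glutamate in the spinal cord, carry GABA-A receptors on soma and central terminals and keep a high internal chloride, so that GABA depolarises their terminals in presynaptic inhibition.

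The 18 low-input libraries held 7531967 to 19443627 endogenous counts, of which 1 feature, CT010467.1, took 29.4% to 93.8%. The members took 0.0491% to 0.209% of the remaining counts. The library of intact 12-month replicate 2 stood apart, with 770328 counts outside that feature, so that 1 count there equals 1.81 CPM (counts scaled to a fixed library total), against 0.0342 to 0.217 CPM in the other 17 libraries. Intact 12-month replicate 3 followed, with 1789183 such counts. Genes detected were 13031 to 14765 in intact and 15396 to 18326 in injured 8-month libraries. At 12 months they were 10778 to 15198 and 18646 to 20128, and at 1 month 15755 to 18611 and 17721 to 18757. The part of this difference in the member changes was not tested. Neuronal markers were present in every library (10 of 10 genes, summed level 4250 to 10400 CPM), and Sst, a marker of a small sensory subtype, was at 0 in all of them. Of 9 nerve injury markers, 8 were called higher in injured libraries. CPM of low-input libraries are scaled by TMM (a trimmed mean of log ratios) and are given as mean ± SD, log2 fold changes are given ± SE, and calls were made with edgeR's quasi-likelihood test over 14212 genes, where the p adjusted by Benjamini-Hochberg within a comparison had to be below 0.05. In bulk libraries of this kind, fewer cells of a type and less RNA per cell cannot be told apart.

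Upstream sequences of the GABA-A genes that were higher after injury, with that of Gabra2, a neighbour of Gabrg1 that was not called, are shown here because the 5 start sites differ in base composition. They are bases before a start site of RefSeq (GRCm38.p6), 5′ to 3′ on the gene's strand, outside exons of the deposited annotation. The first Gabrb1 stretch runs from base 250 to base 198 before its start, because the 197 bases nearer the start are exonic. The other stretches end at base 1 before the start. Capitals mark matches, on either strand, to the STAT motif TTCNNNGAA or the CRE-like motif TGANNTCA; the AP-1 motif TGANTCA was searched as well and had no match in these 5 stretches.

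Gabrg1, chr5:70842618-70842867, minus strand: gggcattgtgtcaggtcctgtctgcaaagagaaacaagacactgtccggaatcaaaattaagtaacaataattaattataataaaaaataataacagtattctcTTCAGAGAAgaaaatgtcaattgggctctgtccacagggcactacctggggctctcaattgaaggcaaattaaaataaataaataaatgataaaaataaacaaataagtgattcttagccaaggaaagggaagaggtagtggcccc

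Gabra5, chr7:57510060-57510309, minus strand: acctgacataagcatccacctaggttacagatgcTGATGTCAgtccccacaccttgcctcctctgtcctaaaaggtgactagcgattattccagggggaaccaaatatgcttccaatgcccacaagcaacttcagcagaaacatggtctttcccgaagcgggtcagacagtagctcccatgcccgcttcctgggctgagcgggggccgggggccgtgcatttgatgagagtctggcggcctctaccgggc

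Gabrb1, first start, chr5:71657671-71657723, plus strand: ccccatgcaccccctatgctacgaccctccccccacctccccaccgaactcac

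Gabrb1, second start, chr5:71699825-71699931, plus strand: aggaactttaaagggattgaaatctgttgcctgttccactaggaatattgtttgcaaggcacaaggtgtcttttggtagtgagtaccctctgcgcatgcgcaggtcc

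Gabra2, chr5:71095850-71096099, minus strand: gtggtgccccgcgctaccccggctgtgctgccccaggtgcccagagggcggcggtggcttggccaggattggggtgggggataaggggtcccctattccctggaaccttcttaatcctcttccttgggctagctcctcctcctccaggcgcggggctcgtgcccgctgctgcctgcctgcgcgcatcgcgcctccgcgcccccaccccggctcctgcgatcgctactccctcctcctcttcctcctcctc

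The Gabrg1 stretch held 1 CpG and 1 match to the STAT motif, the Gabra5 stretch 9 CpG and 1 match to the CRE-like motif, the Gabrb1 stretches 2 CpG each in 53 and 107 bases, and the Gabra2 stretch 18 CpG. Windows of 300 bases around a start (250 before, 50 after) were found for 37 of the 53 members, 45 windows in all. Over all 32851 such windows, 8.3% held the STAT motif, 14.1% the CRE-like motif and 7.81% the AP-1 motif. Among the 45 windows of members, 4, 2 and 3 held them. The median CpG count was 12 in member windows and 7 in all windows, and the window of Gabrg1 held 3. The window of the first Gabrb1 start held 25 CpG and none of the 3 motifs, and that of the second 9 CpG and 1 STAT match, outside the stretch shown. A match describes letters in a window and no binding. No window was found for Grm5.

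Levels across the 18 libraries, scaled by exon length, were led by Gabbr1, the GABA-B subunit that binds GABA, at 11.6 CPM per kb. Glrb, the beta subunit that anchors glycine receptors to gephyrin, followed at 10.1 CPM per kb, and Gabra2 at 8.87, Grik1 at 7.83, Gria4 at 6.15 and Gabrg1 at 5.9 CPM per kb. Gria4 made up 85.7% ± 4.0 of the AMPA level after injury and 79.6% ± 10.2 of it in intact libraries (n = 9 each). Glrb made up 99.4% ± 1.13 and 99.4% ± 1.54 of the glycine level, and the alpha subunits Glra1 to Glra4, which hold the glycine site, had 11, 5, 2 and 8 counts in all 18 libraries together. Gabra6 and Gabrp had no counts in any library.

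After a filter on low counts, 36 of the 53 members were tested. Among the 17 that were not tested were Gabra6, Gabrd, Gabre, Gabrp, Gabrq, Gabrr2, Gabrr3, Glra1, Glra2, Glra3, Glra4, Grin2b, Grin2c, Grin3b, Grm2 and Grm6. Grin3b had the most counts of these, 74 over 18 libraries.

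In the comparison of injured with intact neurons averaged over the 3 ages, 4 members rose and none fell. Gabrb1, Gabra5 and Gabrg1, which encode the beta1, alpha5 and gamma1 subunits of the GABA-A receptor, and Grm5, the group I metabotropic glutamate receptor mGlu5, were called higher. Of all genes tested, 6.18% were called, and 5.11% were called higher. By direction, 21 of the 36 members were above 0 and 15 below, with a median log2 change of 0.14 against 0.03 for all genes. By class, 3 of 11 GABA-A genes and 1 of 5 metabotropic genes were called, and 0 of 4 AMPA, 5 kainate, 4 NMDA, 2 delta and 2 GABA-B genes. An unadjusted p below 0.05 was found for 9 of the 36 members, 8 of them higher, and for 20.26% of all genes.

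**Figure D1:**
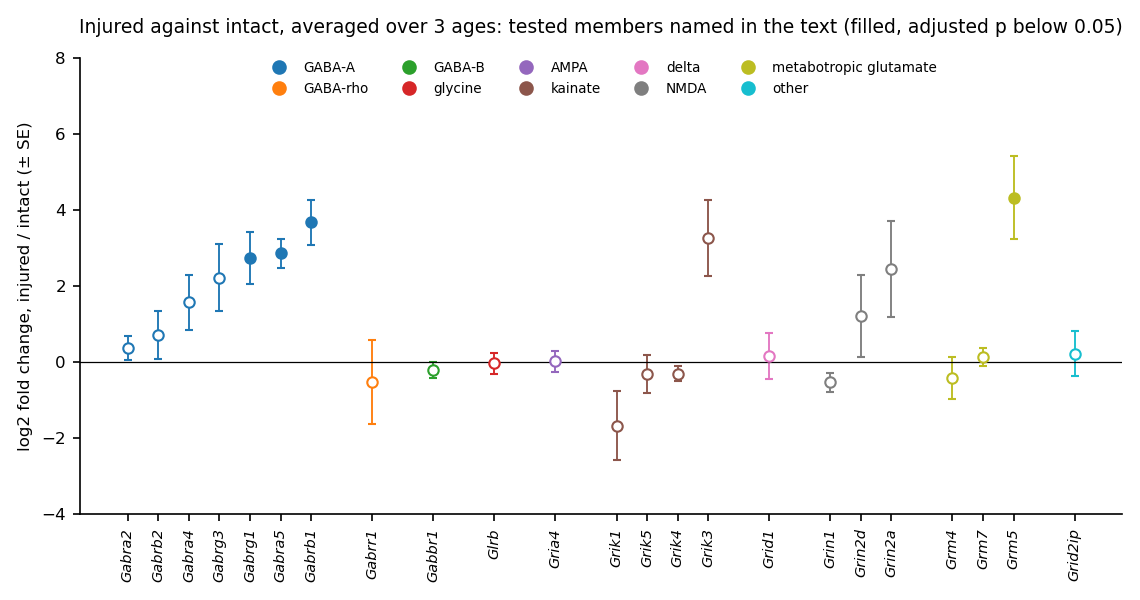
log2 fold change of injured against intact low-input libraries, averaged over 3 ages, with SE, for 23 of the 36 tested members, by class (9 libraries a condition). Filled points are the 4 called members, Gabra5, Gabrb1, Gabrg1 and Grm5, all above 0; open points did not pass the adjusted p of 0.05.

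Gabrb1 was measured at 0.45, 3.76 and 3.63 CPM in the intact and 13.8, 9.36 and 8.57 CPM in the injured 1-month libraries. At 8 months it was 0, 0.432 and 0 CPM in intact and 5.27, 10.1 and 9.01 CPM in injured libraries. At 12 months it was 2.82, 0 and 0 CPM in intact and 14.8, 12.3 and 11.5 CPM in injured libraries. Every injured library lay above every intact library, whatever the age. The means were 10.5 ± 2.93 and 1.23 ± 1.66 CPM (n = 9 each), a log2 change of 3.67 ± 0.59 (edgeR adjusted p = 0.00112). Gabrb1 was the single member whose injured libraries exceeded the intact ones at each of the 3 ages. Over all genes tested 260 did (1.83%), while 17 lay lower in injured libraries at each age. Its first 46 exon bases on the plus strand also belong to Gabra4 on the minus strand, and the counting ignored strand.

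Gabra5, whose receptors are known for lying outside synapses, was at 4.42, 3.62 and 1.9 CPM in intact and at 9.62, 3.01 and 10.1 CPM in injured 1-month libraries. At 8 months the values were 0.206, 0.324 and 0.0821 CPM in intact and 4.26, 9.93 and 12.6 CPM in injured libraries. At 12 months they were 6.42, 1.81 and 3.91 CPM in intact and 18.9, 26.2 and 8.45 CPM in injured libraries. The groups overlapped at 1 month and were apart at 8 and 12 months. Averaged over ages the log2 change was 2.86 ± 0.38 (edgeR adjusted p = 0.000215), with means of 11.5 ± 7.19 and 2.52 ± 2.21 CPM (n = 9 each).

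Gabrg1 was at 5.62, 38.1 and 11.8 CPM in intact and at 80.2, 51.9 and 65.8 CPM in injured 1-month libraries. At 8 months it was at 0, 0.216 and 6.57 CPM in intact and at 3.61, 56.9 and 77.1 CPM in injured libraries. At 12 months it was at 52.6, 10.8 and 16.5 CPM in intact and at 79, 174 and 105 CPM in injured libraries. The conditions were apart at 1 and 12 months and overlapped at 8 months, where injured replicate 1 was low. The log2 change was 2.73 ± 0.69 (edgeR adjusted p = 0.027). Leaving out intact 1-month replicate 3, injured 1-month replicate 1, injured 8-month replicate 2 or 3, intact 12-month replicate 3 or injured 12-month replicate 2 ended the call, with adjusted p between 0.0535 and 0.062.

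Grm5 was scarce. It had 24 counts in the 3 intact and 97 in the 3 injured libraries at 1 month, 0 and 8 counts at 8 months, and 0 and 40 counts at 12 months. With the intact group set to 3 counts in all and the injured counts taken as they stand, pooled levels were 2.08-fold higher in injured libraries at 8 months and 4.81-fold higher at 12 months. The fitted log2 change averaged over ages was 4.32 ± 1.09 (edgeR adjusted p = 0.0321) and depends on the prior count. The call was lost without any 1 of 9 libraries (intact 1-month replicate 2, injured 1-month replicates 1 and 2, injured 8-month replicates 2 and 3, intact 12-month replicates 1 and 3, injured 12-month replicates 1 and 2), with adjusted p between 0.0505 and 0.0642. With a replicate block it was 0.147.

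**Figure D2:**
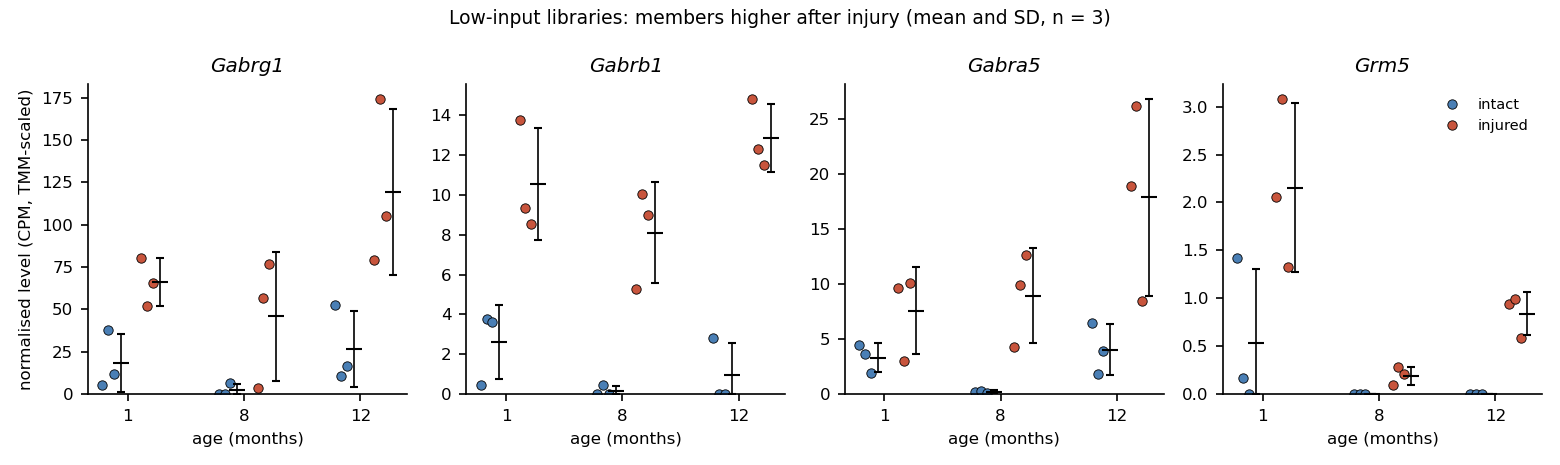
CPM of the 4 called members in each low-input library by age, intact in blue and injured in red, with mean and SD beside each group of 3. For Gabrb1 every injured library, from 5.27 CPM up, lies above every intact library, of which the highest is at 3.76 CPM; the other 3 genes overlap in at least 1 age.

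None of these 4 changes passed the threshold when the share of CT010467.1 in each library was added to the model, where 1.64% of all genes were called. Adjusted p-values were then 0.351 for Gabrb1, 0.115 for Gabra5, 0.698 for Gabrg1 and 0.344 for Grm5, with log2 changes of 1.84, 2.15, 1.16 and 4.12. That share differed between the conditions, so its part and that of injury cannot be told apart. With scaling on the ERCC spike-ins the median of all genes shifted to 2.90 on the log2 scale, 34 of the 36 members and 94.9% of all genes were called, and relative to that median 23 members lay above and 13 below. Gabrb1, Gabra5 and Gabrg1 lay 3.19, 2.80 and 2.73 above the median under that scaling.

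Markers of satellite glia, the cells that wrap the neurons, were higher in the same direction without a call. Their summed level ranged from 114.9 to 2050 CPM in injured libraries (median 698) and from 47.9 to 760 CPM in intact libraries (median 140), and 0 of 10 were called. Apoe held most of that sum, at 740.8 ± 679 and 196.5 ± 237 CPM, and no marker of the list was at 0 in all libraries. By age the sum was 1305 to 2050 CPM in injured against 97.5 to 626 CPM in intact libraries at 1 month, 366.8 to 709 against 98.2 to 532 CPM at 8 months, and 114.9 to 441 against 47.9 to 760 CPM at 12 months. Markers of vascular cells and fibroblasts summed to 16.8 to 59.3 CPM in injured and 0 to 81.3 CPM in intact libraries, immune markers to 1.17 to 9.79 and 0 to 7.22 CPM, and Schwann cell markers to 323 to 563 and 215.9 to 903 CPM. The part of other cell types in the 4 changes was not tested.

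GABA-A genes lie in clusters, and the called members were spread over 2 of them. On chromosome 5 the order is Gabrg1, Gabra2, Gabra4 and Gabrb1, with log2 changes of 2.73, 0.36, 1.57 and 3.67, so both outer genes were called and both inner genes were not. On chromosome 7 Gabrg3 and Gabra5 are neighbours, with log2 changes of 2.21 and 2.86, and of this pair Gabra5 was called.

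Other GABA-A members of the averaged comparison did not pass the test. Gabra2 was at 75.6 ± 24.7 and 60 ± 29.4 CPM (log2 change 0.36 ± 0.31, edgeR adjusted p = 0.569). Gabra4 had a log2 change of 1.57 ± 0.73 (adjusted p = 0.234) and was at 0 to 3.83 CPM over all libraries. Gabrg3 had a log2 change of 2.21 ± 0.89 (adjusted p = 0.165) and at most 1.52 CPM. Gabrr1, a rho subunit best known from the retina, was at or below 6.27 CPM (log2 change -0.53 ± 1.11, adjusted p = 0.845).

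Gabbr1 averaged 82.3 ± 12.7 CPM after injury and 97.8 ± 40.4 CPM in intact libraries (log2 change -0.22 ± 0.22, edgeR adjusted p = 0.624). The injured libraries lay within 65.4 to 106 CPM and the intact ones within 36.7 to 165 CPM. Glrb was at 46.2 ± 17.4 and 47.7 ± 25.7 CPM (log2 change -0.04 ± 0.28, adjusted p = 0.96), a difference in means of less than 1 SD.

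Among the ionotropic glutamate receptors no member was called. Gria4, the leading AMPA subunit, averaged 38.8 ± 10.2 CPM after injury and 38.8 ± 15.8 CPM in intact libraries (log2 change 0.01 ± 0.27, edgeR adjusted p = 0.994). Grin1, the subunit that every NMDA receptor needs, averaged 34.8 ± 11.2 CPM after injury and 52.8 ± 31.6 CPM in intact libraries (log2 change -0.54 ± 0.24, adjusted p = 0.219). It was called lower, with an adjusted p of 0.0362, when intact 8-month replicate 3 was left out. Grin2a, a GluN2 subunit, had 105 counts in all and a log2 change of 2.44 ± 1.27 (adjusted p = 0.303). Its mean levels stood the other way, at 0.723 ± 0.952 CPM after injury and 1.06 ± 2.99 CPM in intact libraries. The intact mean includes 9.03 CPM from 5 counts in 12-month replicate 2. Grid1, a delta receptor, had a log2 change of 0.15 ± 0.61 (adjusted p = 0.927) and Grid2ip 0.21 ± 0.59 (adjusted p = 0.896).

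Of the kainate receptor genes, Grik1, which encodes the GluK1 subunit typical of small sensory neurons, ranged from 1.39 to 67.6 CPM in injured libraries and from 0.721 to 239 CPM in intact ones (log2 change -1.69 ± 0.91, edgeR adjusted p = 0.321). Without a filter on low counts it was called lower, at nearly the same change (-1.67, adjusted p = 5.49e-10). Libraries of the same group differed widely, since the intact 8-month libraries held 0.721, 229 and 239 CPM. Summed markers of the non-peptidergic subtype ranged from 2.58 to 1828 CPM in these intact 8-month libraries, and the part of subtype makeup in the Grik1 level was not tested. Grik3 had a log2 change of 3.27 ± 1.00 (adjusted p = 0.0679). It was at 0, 0 and 0 CPM in intact and 0.439, 4.04 and 2.4 CPM in injured 12-month libraries. With the intact group set to 3 counts in all and the injured counts taken as they stand, its pooled level at 12 months was 13.1-fold higher in injured libraries. It was called without intact 8-month replicate 2 or injured 8-month replicate 1, with adjusted p of 0.023 and 0.0358, with DESeq2, at 0.0292, and without a filter, at 0.00631.

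At single ages fewer members were called. At 1 month 0 of 36 members were called and 1, Gabrb1, had an unadjusted p below 0.05 (log2 change 2.00 ± 0.87, edgeR adjusted p = 0.998); 0.232% of all genes were called and 4.5% had such a p. DESeq2 also called 0 members there, against 0.868% of genes. At 8 months, Gabra5 (log2 change 5.44 ± 0.76, adjusted p = 0.00244) and Gabrb1 (5.83 ± 1.17, adjusted p = 0.0254) rose, against 0.957% of all genes called. In the 3 intact 8-month libraries Gabra5 had 6 counts and Gabrb1 had 4 counts together, so these fitted values rest on few intact counts. The Gabrb1 call at 8 months was lost without intact 8-month replicate 1 or 3 or injured 8-month replicate 2 or 3, with adjusted p between 0.0614 and 0.0817. With the share of CT010467.1 in the model neither was called at 8 months (adjusted p 0.194 for Gabrb1 and 0.0537 for Gabra5).

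At 12 months 1 member rose, Grm7, the presynaptic group III receptor mGlu7, against 2.99% of all genes called. It was at 5.14, 7.22 and 9.13 CPM in intact and at 27.7, 22.3 and 22.4 CPM in injured 12-month libraries (log2 change 1.77 ± 0.42, edgeR adjusted p = 0.0345). At 8 months it stood the other way, at 51.6, 55.1 and 42.3 CPM in intact and 32.9, 15.9 and 20.7 CPM in injured libraries (log2 change -1.10 ± 0.38, adjusted p = 0.214). At 1 month the groups overlapped, with 18.4, 7.55 and 22.6 CPM in intact and 13.1, 9.17 and 17.4 CPM in injured libraries. The injured level thus spanned 9.17 to 32.9 CPM over all ages, and the intact level 5.14 to 55.1 CPM. Leaving out injured 1-month replicate 1, intact 12-month replicate 1 or any injured 12-month replicate ended the 12-month call, with adjusted p between 0.0512 and 0.114, and so did the share of CT010467.1 as covariate (log2 change 2.89, adjusted p = 0.0852). Grm7 shares 130 exon bases with Gm20387 on the other strand.

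A test of whether the injury change differed between the ages called 0 of 36 members with edgeR, and 0% of all genes. For Grm7 the adjusted p was 0.229 and for Gabra5 0.265. Unadjusted p-values were below 0.05 for 9 members and 8.17% of all genes. DESeq2 called 2 members and 1.56% of genes, Grm7 with an adjusted p of 0.00688 and Gabra5 with 0.0126.

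Between ages, members were called in intact neurons. From 8 to 12 months in intact libraries 4 members changed, where 6.69% of all genes were called. Grm7 fell by 2.81 on the log2 scale (SE 0.43, edgeR adjusted p = 0.00395) and Grik4, a high-affinity kainate subunit, fell by 2.40 (SE 0.37, adjusted p = 0.00395). Gabra5 rose by 4.48 ± 0.77 (adjusted p = 0.00623) and Gabrb2, the beta2 subunit, by 5.94 ± 1.38 (adjusted p = 0.0205). Both of these calls were lost with ERCC scaling, which moved the median of all genes here to -2.17 (Gabra5 2.62, adjusted p = 0.193; Gabrb2 3.36, adjusted p = 0.146). The intact 8-month libraries held 62.1, 72.2 and 40.4 CPM of Grik4 and the 12-month ones 12.2, 7.22 and 12 CPM, without overlap. For Gabrb2 the 8-month values were 0, 0.324 and 0 CPM and the 12-month values 8.65, 7.22 and 4.35 CPM. Without intact 8-month replicate 3 the count of called members was 8, with 9.69% of all genes called, and without intact 12-month replicate 2 it was 6, with 14.3%. From 1 to 8 months Gabra5 fell by 4.01 on the log2 scale (SE 0.74, adjusted p = 0.0166), the 1 member called, against 0.922% of all genes; without intact 1-month replicate 2 its adjusted p was 0.053, and with the share of CT010467.1 in the model it was 0.153. Without intact 12-month replicate 2, a library of neither age, 4 members and 2.76% of all genes were called there.

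From 1 to 12 months in intact libraries 0 members were called, against 0.246% of all genes, and 7 had an unadjusted p below 0.05, as did 10.74% of all genes; DESeq2 called 0 members and 2.01% of genes. In injured libraries 0 of 36 members were called from 1 to 8 months, 1 to 12 months and 8 to 12 months with edgeR, where 0.225%, 0.113% and 0.0633% of all genes were called. The unadjusted p was below 0.05 for 3, 2 and 1 members and for 4.99%, 3.86% and 4.29% of all genes. DESeq2 called 0 members in each, against 0.84%, 0.388% and 0.402% of genes. The comparisons with injury at 8 and 12 months and those between ages share intact libraries, so the same intact 8-month values stand in several of them.

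**Figure D3:**
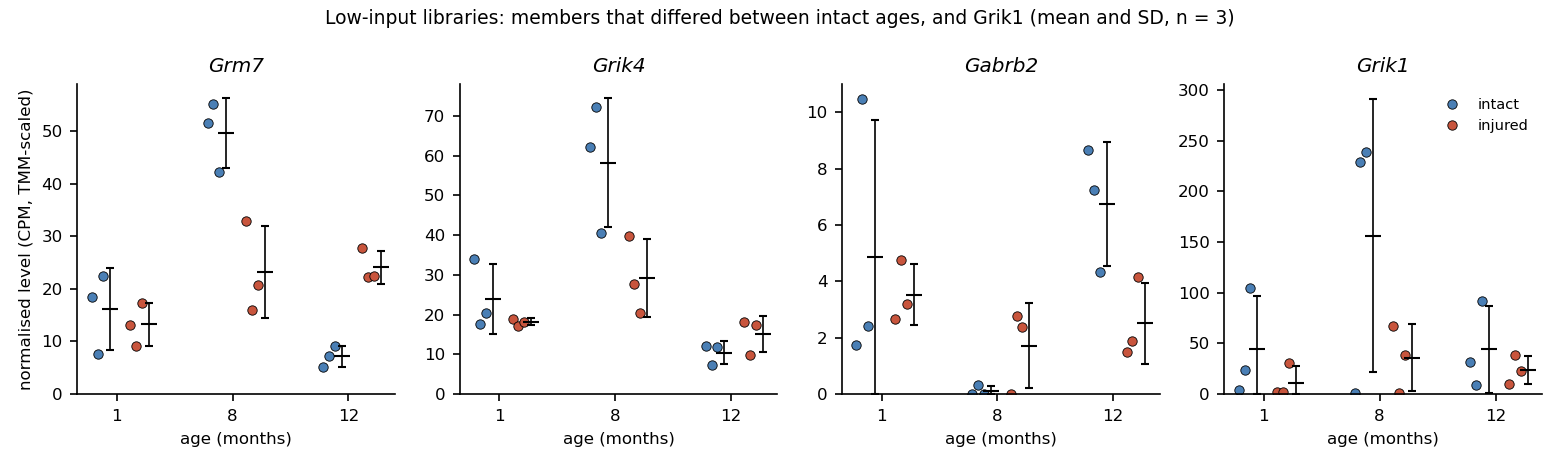
CPM of Grm7, Grik4, Gabrb2 and Grik1 in each low-input library by age, intact in blue and injured in red, with mean and SD beside each group of 3. Grm7 and Grik4 are highest in the intact 8-month libraries (42.3 to 55.1 and 40.4 to 72.2 CPM) and Gabrb2 is near 0 there, while Grik1 runs from 0.721 to 239 CPM within that 1 group.

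Genes that work with these receptors were taken as 5 lists. Of the 6 tested genes for GABA synthesis, transport and chloride handling (12 listed), 0 were called in the averaged injury comparison, and 2 had an unadjusted p below 0.05. Slc12a2, the cotransporter NKCC1 that loads chloride into sensory neurons, averaged 6.35 ± 2.00 CPM after injury and 9.42 ± 10.3 CPM in intact libraries. Of 13 tested scaffold and traffic genes of GABA-A and glycine receptors (15 listed), 0 were called, and Gphn, which encodes gephyrin, was at 13.7 ± 2.28 and 11.8 ± 4.21 CPM. Of 2 tested GABA-B auxiliary genes (4 listed), 0 were called. Medians of these 3 lists were 0.51, -0.08 and -0.17 on the log2 scale, against 0.03 for all genes.

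Of 10 tested genes for glutamate synthesis and transport (11 listed, median 0.36), 1 rose, where 6.18% of all genes were called. Slc17a6, the vesicular glutamate transporter VGLUT2, averaged 109.7 ± 20.6 CPM after injury and 65 ± 19.1 CPM in intact libraries (log2 change 0.76 ± 0.16, edgeR adjusted p = 0.0071). Of 28 tested auxiliary and scaffold genes of glutamate receptors (31 listed, median 0.09), 3 rose and 2 fell, beside the same share of all genes. Calls of list genes come from the main fit only. They were not checked with libraries left out or with the share of CT010467.1 in the model, as those of members were. Cnih3, an AMPA receptor auxiliary protein, rose by 5.49 ± 1.05 from 0.0719 ± 0.118 to 2.11 ± 2.18 CPM (adjusted p = 0.00552), Nsg1 by 1.98 ± 0.56 (adjusted p = 0.0483) and Shank2 by 2.71 ± 0.78 (adjusted p = 0.047). Dlg4, which encodes the scaffold PSD-95, fell by 0.74 (SE 0.21, adjusted p = 0.0482) and Cacng2, which encodes the AMPA auxiliary protein stargazin, fell by 1.55 (SE 0.44, adjusted p = 0.0429). Cacng2 averaged 5.24 ± 1.62 CPM after injury and 19.6 ± 28.6 CPM in intact libraries.

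In single cells each group counts as 1 sample, because no animal is named, and no test was made. Cells with at least 100000 counts outside CT010467.1 were kept, 12 of 18 intact and 17 of 21 injured cells at 1 month and 8 of 8 intact and 18 of 22 injured cells at 1 year. Levels are CPM of counts pooled over a group, with 95% exact Poisson intervals that cover counting error only, and they are on another scale than those of the low-input libraries. Median depth was 7145018 counts in intact and 3917071 in injured 1-year cells, so numbers of cells with a count are also given after thinning each cell to 100000 counts. A cell had counts for 0 to 41 members. The kept 1-month cells included intact ones with 561 and 1141 genes detected and an injured one with 608. The median over all 69 cells was 11434 genes. Mitochondrial genes took 42.5%, 51.1% and 68.3% of the counts outside CT010467.1 in these shallow cells, and their member counts were 626, 1 and 0.

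At 1 month, 3 of the 33 members at 1 CPM or more in a group differed by 4-fold or more (ratio of CPM + 1), where 4.78% of all genes did. Gabrb1 was at 12.2 CPM (11.2 to 13.2) in injured and 1.14 CPM (0.815 to 1.54) in intact cells, and Grm4 and Grik5 were lower in injured cells, at 10.2 against 58.2 CPM and at 1.38 against 9.8 CPM. Gabrb1 had counts in 9 of 17 injured and 2 of 12 intact cells, and after thinning in 7 and 1. In intact cells 1 cell gave 87.8% of the Gabrb1 counts and 65.4% of those of Grm4. With equal weight for each cell, the log2 ratios were 3.01 for Gabrb1, -1.69 for Grm4 and -1.48 for Grik5, so the last pair no longer reached 4-fold. With that weighting Gria4 (log2 ratio -2.91) and Gabrq (-6.23) did. Both rest on the intact cell with 561 genes detected, which held 4086 CPM of Gria4 and all Gabrq counts of intact cells.

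At 1 year, 3 of 43 members differed by 4-fold or more, where 6.79% of all genes did, and these were Grik1 and Gabre, higher, and Grin2d, lower in injured cells. Grik1 was at 113.6 CPM (111 to 116) in injured and 14.2 CPM (13.2 to 15.2) in intact cells, with 43% of the injured counts from 1 cell. Of the Gabre counts, 99.6% came from 1 cell. Grin2d was at 1.83 CPM (1.56 to 2.12) in injured and 14.1 CPM (13.1 to 15.1) in intact cells. No member reached 4-fold in the same direction at both ages. After thinning, 6 members were past 4-fold at each age, where 6.25% of all genes were at 1 month and 11.47% at 1 year.

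The GABA-A genes that rose in the low-input libraries were not all higher in injured cells at 1 year. Injured and intact cells of that age overlapped in summed nerve injury markers. These had a median of 934.6 CPM (181 to 8949) in injured and 496.6 CPM (166 to 1896) in intact 1-year cells. At 1 month the medians were 2067 CPM (129 to 18440) and 245.3 CPM (0 to 2593). The part of this overlap in the GABA-A levels was not tested. Gabrb1 was at 5.02 CPM (4.57 to 5.5) in injured and 9.74 CPM (8.94 to 10.6) in intact 1-year cells. In pooled counts this was the opposite order to 12-month low-input libraries. The log2 ratio of Gabrb1 was -0.83 pooled and -0.90 with equal weight for each cell. After thinning to 100000 counts it was 0.28, so the opposite order did not hold there. Gabrg1 was at 39.9 and 56.4 CPM, and Gabra5 at 12.4 and 10.8 CPM. At 1 month Gabrg1 was at 83.8 CPM (81.4 to 86.4) in injured and 23.9 CPM (22.3 to 25.5) in intact cells, but 1 cell gave 76.2% of the intact and 1 cell 55.9% of the injured counts. Gabra5 was at 15.9 and 14.4 CPM at 1 month. Grm5 was at 0.581 and 0.111 CPM at 1 month and at 0.315 and 0 CPM at 1 year, with counts in at most 4 cells of a group.

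Grin1 was lower in injured cells at both ages without reaching 4-fold, at 49.8 against 138 CPM at 1 month and 85.7 against 179 CPM at 1 year. Grin1 had counts in 15 of 17 injured and 11 of 12 intact cells at 1 month, and after thinning in 14 and 11. Gria4 was detected in 54 of the 55 kept cells, Gabra2 in 53, Gabbr1 and Grin1 in 52 each, and Gabrg1, Gabra5 and Gabrb1 in 37, 38 and 28. After thinning these numbers were 52, 51, 49 and 51, and 24, 21 and 17. In intact 1-year cells thinning took Gabrg1 and Gabrb1 from 8 of 8 cells and Gabra5 from 7 of 8 to 3 of 8 (37.5%) each. Of the 28 cells with Gabrb1 counts, 28 also had Gabra2 counts, and 24 had Gabrg1 counts. Across the 55 cells Gabrg1 and Gabra2 had a Spearman correlation of 0.518, Gabrg1 and Gabrb1 of 0.407, and Gabrb1 and Gabra5 of 0.153. All pairs of members computed ran from -0.33 (Gabrg1 and Gria1) to 0.675 (Grm4 and Gria3). The cells share depth differences and 4 groups, so these are descriptions.

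**Figure D4:**
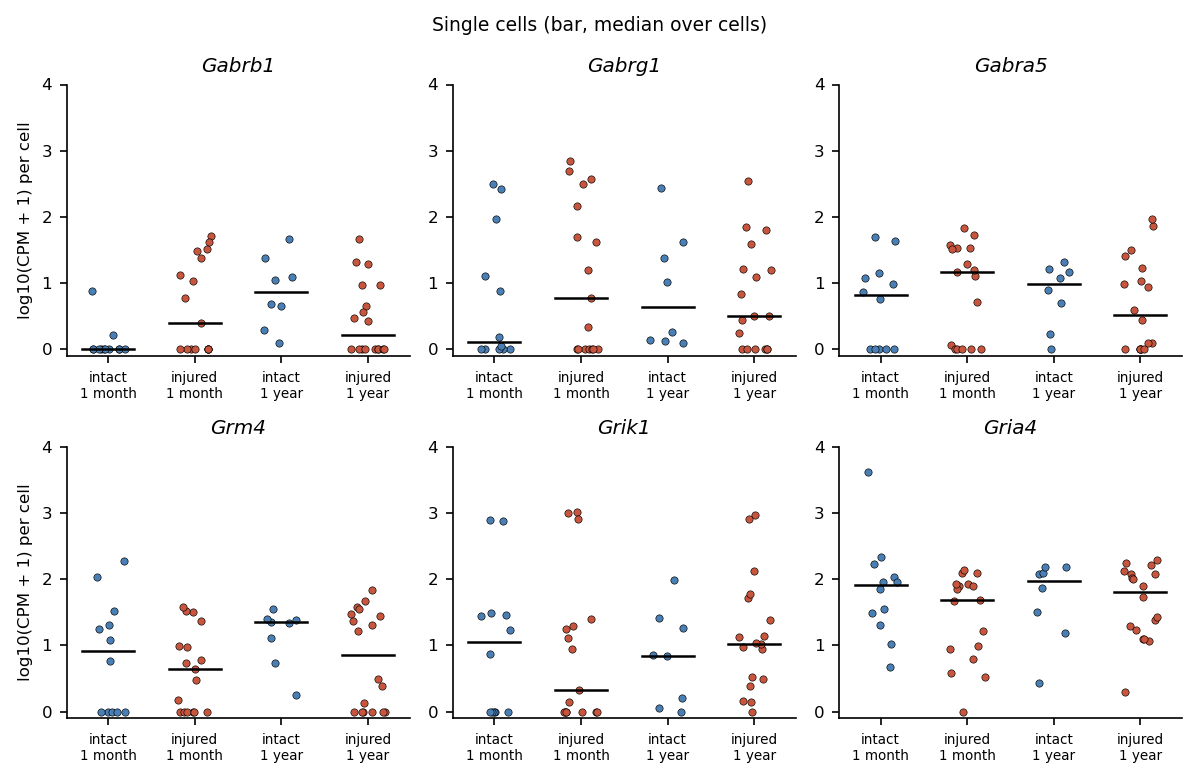
log10(CPM + 1) of 6 members in each kept single cell, intact in blue and injured in red, with a bar at the median of the cells. Gabrb1 has counts in 2 of 12 intact and 9 of 17 injured 1-month cells, and a few cells with high values carry Gabrg1 and Grik1, while Gria4 has counts in 54 of 55 cells.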

How the data were processed

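RNA was measured in 18 low-input libraries and 69 single cells; 94 methylation samples of the series were not analysed here. The deposited table holds raw counts of read pairs per gene in 87 columns, and 0 columns of values were left unused. Counting used featureCounts 1.5.2, unstranded, per the file headers, and ran over exons of GENCODE M16 with ERCC spike-ins; Trim Galore, STAR and mm10 are named in the submitters' processing notes.

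The spike-ins were removed and all 18 libraries were fitted with edgeR 4.0.16 (R 4.3.3; filterByExpr, TMM, 6 group means, robust quasi-likelihood test, 14212 genes, 12 residual degrees of freedom), which was tested on simulated data. Alternatives were DESeq2 1.42.0, RLE or ERCC scaling, no or a stricter filter, a replicate block, the share of CT010467.1 as covariate, and each library left out. SE is the log2 change divided by the square root of the F statistic. Intervals cover counting error only. Where an intact group had no counts, folds set it to 3 counts and left out the counting error of the injured group.

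Libraries with the same number were checked for pairing over 2358 genes. At 1 month the correlations of injured and intact deviations were 0.109, 0.371 and 0.328. They were -0.422, -0.238 and -0.0143 at 8 months and -0.0822, -0.0608 and 0.0779 at 12 months. Between different ages of 1 condition, libraries with the same number ran from -0.41 to 0.395. These correlations therefore cannot show pairing, and the main fit held no replicate block. The block used as an alternative joined equal numbers within an age, or within a condition for comparisons between ages.

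The members, the gene lists and the markers were chosen with earlier results of these data known. Members named with values were those called in any comparison, the 10 smallest p-values of the averaged injury comparison, the 2 smallest of each other comparison, the leading gene per length of each class, and members whose conditions did not overlap at any of the 3 ages in 1 direction. Other members were named after their values were seen. Some members are not reported here by name.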

Additional observations from a re-analysis of the deposited data

Results flagged for a closer look

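Grm7 stood on opposite sides at 8 and 12 months, and only the 12-month change was called in the main fit. Every injured library was below every intact library at 8 months (log2 change -1.10) and above at 12 months (log2 change 1.77). Grm7 was singled out from the tested members by this pattern, and the share of all genes with such a pattern was not counted. The difference between the ages was tested over all 3 ages together and was not called with edgeR (adjusted p = 0.229), while DESeq2 called it (adjusted p = 0.00688) and so did the fit without a filter (0.00434). No test was made of those 2 ages alone.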

How the results depend on the processing

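The counts of called members depended on the alternatives, and the cause was not tested unless named; the share of all genes called stands in parentheses. In the averaged injury comparison, where 4 members were called, the count was 34 with ERCC scaling (94.9%), 8 without a filter (6.04%), 0 with the share of CT010467.1 as covariate (1.64%), and 2 to 5 when 1 library was left out (3.84% to 9.92%). At 1 month, with 0 called, it was 3 without a filter (0.968%). At 8 months, with 2 called, it was 7 with ERCC scaling (4.44%), 7 without a filter (2.32%), 0 with the covariate (0.0633%), 1 with the replicate block (0.204%), 5 with DESeq2 (3.76%) and 1 to 3 leaving out 1 library (0.184% to 1.6%). At 12 months, with 1 called, these were 36 (96.2%), 6 (3.29%), 0 (0.978%), 0 with the replicate block (0.408%), 4 with DESeq2 (9.28%) and 0 to 2 (0.506% to 7.03%). From 1 to 8 months in intact libraries, with 1 called, the count was 2 with RLE scaling (1.03%), 6 with ERCC scaling (2.62%), 9 without a filter (2.95%), 0 with the covariate (0.317%), 0 with the replicate block (0.281%), 7 with DESeq2 (5.94%) and 0 to 4 leaving out 1 library (0.252% to 2.76%). From 1 to 12 months, with 0 called, it was 34 with ERCC scaling (89.9%), 1 without a filter (1.04%) and 0 to 1 leaving out 1 library (0.101% to 1.46%). From 8 to 12 months, with 4 called, it was 13 without a filter (6.08%), 11 with DESeq2 (15.7%) and 4 to 8 leaving out 1 library (2.63% to 14.3%). Injured libraries from 1 to 8 months gave 1 without a filter (0.82%), and the interaction of injury and age gave 4 without a filter (1.35%) and 2 with DESeq2 (1.56%). With the replicate block the adjusted p was 0.134 for Gabrb1 at 8 months, 0.0958 for Grm7 at 12 months and 0.0591 for Gabra5 from 1 to 8 months in intact libraries.

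ERCC scaling, which moved the median of all genes to 2.90, turned the averaged log2 change of Grik4 to 2.50, of Grin1 to 2.22, of Gabbr1 to 2.72, of Gabrr1 to 1.34, of Glrb to 2.93 and of Grik1 to 0.75, and that of Grm7 to 1.34 at 1 month and 0.52 at 8 months, where the medians were 1.30 and 2.03. These signs follow from the shift: relative to the median, Grik4 (-0.40), Grin1 (-0.67), Gabbr1 (-0.17), Gabrr1 (-1.55) and Grik1 (-2.15) stayed below 0. The covariate turned Gabrb2 to -0.16, Gabrg3 to -1.34, Gria4 to -0.32, Gabbr1 to 0.40 and Grid2ip to -0.50, and, at 12 months, Gabrg1 to -0.82 and Gabrb1 to -0.013. Gria4 was -0.018 with RLE scaling, -0.0025 with the stricter filter and -0.018 with DESeq2. The replicate block turned Glrb to 0.039. Leaving out 1 library gave averaged log2 changes of -0.10 to 0.28 for Gria4, -1.81 to 1.28 for Gabrr1, -0.041 to 1.10 for Grid1, -0.18 to 0.15 for Glrb and -0.19 to 0.94 for Grid2ip, and of -0.63 to 0.031 for Grm7 at 1 month. None of these reversed values was a call in the main comparison. In single cells the count past 4-fold was 3 at each age with equal weight for each cell and with all cells, 2 at each age over all endogenous counts, and 6 at each age after thinning to 100000 counts, an alternative chosen after seeing the data. The shallow intact 12-month replicate 2 and the few counts of Grm5, Grik3, Gabrg3 and Grin2a limit what their fold changes show.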
